A study of Mus musculus with 6 samples.

Results

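The proliferation genes examined here are 30 genes that cycling cells transcribe, chosen by name: 10 genes of DNA replication, 3 cyclins of the G1 phase, 16 genes of mitosis, and Spag5, which encodes the spindle protein astrin. Of the 30, 29 had a probe set that carries the gene's symbol alone, and these 29 were followed among 12393 genes measured in newborn mouse lens. Ccnb1, the mitotic cyclin B1, had no such probe set. A gene was read by its brightest probe set, that with the highest mean log2 intensity over all arrays, and the 29 genes held 62 probe sets in all. The question asked of them was whether loss of Hsf4 changed the transcripts of dividing cells as a group or single members of it.

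RNA was taken from the lenses of newborn ICR mice that were wild-type (3 arrays) or HSF4 null (3 arrays), and the methods describe these as biological triplicates. HSF4 is a heat shock transcription factor of the lens, and the labels name its mutant allele only as null. Each sample of 50 ng total RNA was amplified to biotin-labeled cDNA and hybridized to an Affymetrix mouse expression array, on which a transcript is read by a probe set, a group of short oligonucleotides. Intensities were RMA-normalized by the authors and are given below as log2 values. The sources used here do not say whether a sample came from a single animal or from pooled lenses, and the p-values measure the spread among these samples.

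The lens grows from a single layer of anterior epithelial cells. These cells divide mainly near the lens equator, and their daughters then leave the cell cycle and elongate into fiber cells, which lose their nuclei. Before DNA synthesis, E2F factors switch on the genes of replication, among them the MCM helicase and the enzymes that supply deoxynucleotides. Later in the cycle the mitotic genes are switched on, many of them through a CCAAT box and a cell cycle homology region in their promoters. Astrin, the product of Spag5, joins the spindle and the kinetochores in mitosis, where it stabilizes the attachment of microtubules to chromosomes.

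The targeted gene was read first. The Hsf4 probe set read 9.09, 9.39 and 9.56 on the wild-type arrays and 4.26, 4.09 and 3.79 on the Hsf4-null arrays. No source used here says whether that probe set matches the deleted sequence. Markers of both lens cell types were read on every array. The 15 lens epithelium markers averaged 9.36 to 9.5 by array, with Foxe3, a transcription factor of that layer, dim in both groups. The 12 measured lens fiber markers averaged 10.54 ± 0.06 (SD, n = 3) in the wild-type group and 9.79 ± 0.05 (SD, n = 3) in the Hsf4-null group. Their log2 differences, Hsf4-null minus wild-type, ran from -4.12 for Hspb1 to 0.02 for Cryba1, with a median of -0.29. At an adjusted p under 0.05 from limma, 357 of the 12393 genes passed, 261 of them lower and 96 higher in Hsf4-null lenses. The log2 values of arrays correlated at 0.991 to 0.9941 within a group and at 0.9824 to 0.9902 between groups.

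Of the 29 proliferation genes, 1 passed this test, Spag5, which fell, and 0 rose. Over all genes tested the percentage called was 2.88%, with 2.11% lower and 0.775% higher, so that a single call among 29 genes is about what the whole array gave. Among the other 28 genes 0 passed, and at an unadjusted p under 0.05 from limma there was 1, Cenpa, against 15.7% of all genes. The log2 difference, Hsf4-null minus wild-type, lay above 0 in 22 of the 28 and below 0 in 6, with a median of 0.193, where the median over all genes was 0.007. In bulk tissue, fewer cells of a type and less RNA per cell cannot be told apart. Precision is limited by the number of arrays, and with 3 arrays against 3 the smallest p that an exact permutation test allows for any gene is 0.1.

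**Figure D1:**
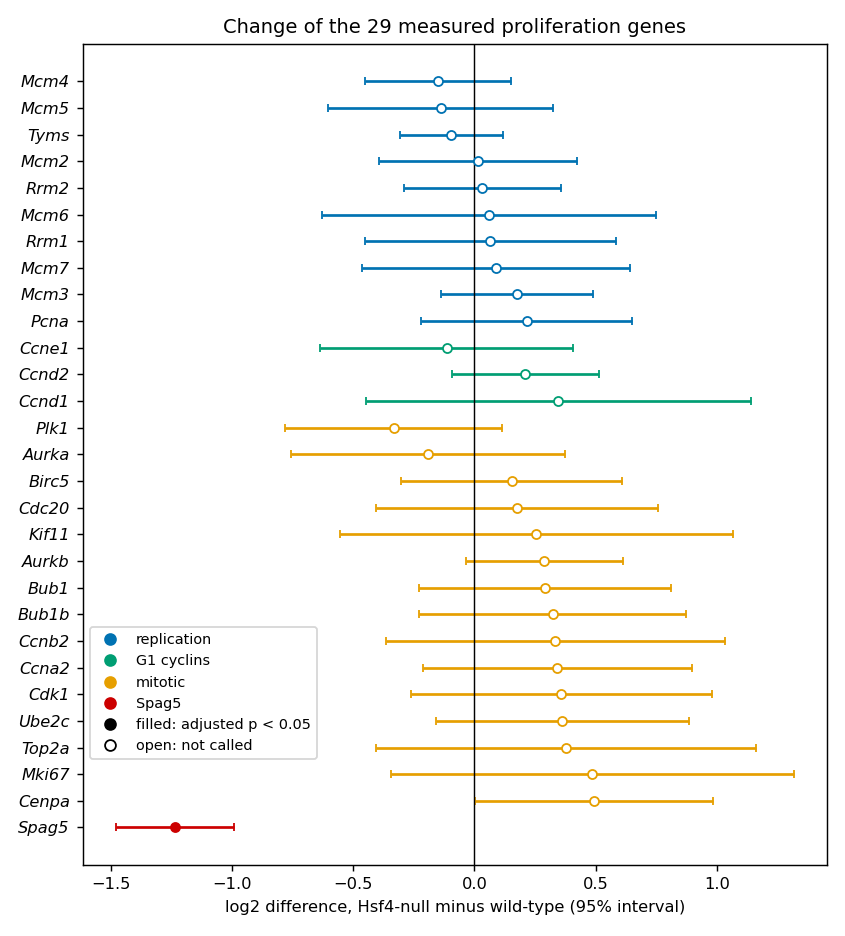
Log2 difference between Hsf4-null and wild-type lenses (horizontal axis) for each of the 29 measured proliferation genes, with its 95% interval from limma on 3 arrays per group. Colors mark the class of the gene. The Spag5 point, filled because it passed at an adjusted p under 0.05, lies at -1.23, left of the intervals of all other 28 genes, and 27 of those intervals cross 0.

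Spag5 was the member whose groups stood apart. Its brightest probe set, 1433893_s_at, read 9.25, 9.44 and 9.42 on the wild-type arrays and 8.24, 8.15 and 8.03 on the Hsf4-null arrays. All 3 Hsf4-null arrays lay below all 3 wild-type arrays, as they did for 11.5% of all genes. The wild-type mean was 9.37 ± 0.10 (SD, n = 3), against 8.14 ± 0.10 (SD, n = 3) in the Hsf4-null group. Spag5 thus fell by 1.23 in log2 units, which is 2.35-fold lower (limma: standard error, SE, 0.11, adjusted p = 0.000919). Spag5 is named in the study's heat map of genes changed in each of its lens mutants. These are lenses with dominant-negative Brg1, lenses heterozygous for Pax6 and Hsf4-null lenses, so that a Spag5 change was not reported for Hsf4 loss alone. The Hsf4 part of that map draws on these arrays, and the Spag5 call here is not independent evidence.

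A second Spag5 probe set, 1433892_at, gave the same direction. It read 7.35, 7.60 and 7.31 on the wild-type arrays and 6.33, 5.95 and 5.33 on the Hsf4-null arrays, and fell by 1.55 (limma: SE 0.24, adjusted p = 0.0146). Here too the groups did not overlap. The third, 1427498_a_at, lay near the bottom of the scale, at 3.81, 3.81 and 4.02 on the wild-type arrays and 3.58, 3.82 and 3.91 on the Hsf4-null arrays. Its groups overlapped, with a log2 difference of -0.11 (adjusted p = 0.723 from limma), at a level where a fall could be hidden. Of the brightest probe sets of the 29 genes, 8 carry the suffix s or x, which the array's maker gives to probe sets that may also match other transcripts, and that of Spag5 is among them.

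Whether Spag5 differs from the other mitotic genes in its promoter was examined in the RefSeq promoter windows of GRCm38.p6, each from 250 bases before to 50 bases after a transcription start. Of the 30 genes, 25 had a window. The letters searched, on both strands, were TTTGAA for the cell cycle homology region, CCAAT for the CCAAT box, TTTGGCGC, TTTCGCGC and TTTCCCGC for an E2F site, and GAANNTTC or TTCNNGAA for a heat shock element of 2 units. The following stretches show Spag5 and examples of mitotic genes, chosen for a CCAAT box close upstream of a cell cycle homology region. Both motifs are in capitals, and their spacing and position differ between the genes. Either motif may read on the opposite strand, as ATTGG or TTCAAA, and positions are counted from 1 at the window's start site, with -1 just before it.
Spag5, chr11:78301561-78301609 (+), positions -30 to 19: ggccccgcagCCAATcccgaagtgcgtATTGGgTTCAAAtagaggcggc
Cdk1, chr10:69352968-69353002 (-), positions -90 to -56: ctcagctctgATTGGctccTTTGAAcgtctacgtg
Ccnb2, chr9:70421535-70421585 (-), positions -31 to 20: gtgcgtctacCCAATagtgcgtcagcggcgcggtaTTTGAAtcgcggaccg
Kif11, chr19:37376327-37376378 (+), positions -55 to -4: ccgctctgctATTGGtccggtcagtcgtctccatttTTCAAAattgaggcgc
Ube2c, chr2:164769862-164769915 (+), positions -67 to -14: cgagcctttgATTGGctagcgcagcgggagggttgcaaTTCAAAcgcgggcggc
Mki67, chr7:135716480-135716530 (-), positions -151 to -101: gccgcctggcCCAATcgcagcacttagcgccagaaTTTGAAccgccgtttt
Top2a, chr11:99024353-99024388 (-), positions -199 to -164: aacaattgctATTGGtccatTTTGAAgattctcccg

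Spag5 held the same letters as most of the mitotic genes. Its cell cycle homology region lay at positions 4 to 9, with CCAAT boxes at -20 to -16 and at -3 to 2. The Spag5 window is built on a start 121 bases inside the first base of the RefSeq gene, and 16 of the 25 genes had a window built on the first base itself. Of 14 mitotic genes with a window, 11 held a cell cycle homology region and 13 a CCAAT box, and 11 held both, compared with 17.9% and 37.4% of all 32851 windows for each motif alone. Of 9 replication genes, 1 (Mcm2) held a cell cycle homology region and 8 a CCAAT box.

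The E2F site was found mainly in the replication genes. It was found in 4 of 9 replication genes (Mcm3, Mcm5, Mcm6 and Mcm7), in 1 of 14 mitotic genes (Cdk1), not in the Spag5 window, and in 1.84% of all windows. Paired, oppositely oriented sites overlap in Mcm5 and in Mcm6, shown here with the E2F letters of both strands in capitals.
Mcm5, chr8:75109341-75109382 (+), positions -168 to -127: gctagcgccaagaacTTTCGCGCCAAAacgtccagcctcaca
Mcm6, chr1:128359730-128359830 (-), positions -125 to -25: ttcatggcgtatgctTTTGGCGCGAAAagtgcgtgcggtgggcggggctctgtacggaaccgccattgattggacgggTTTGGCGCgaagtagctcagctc

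The Spag5 window did not hold the letters of a heat shock element, the binding site of heat shock factors. A heat shock element of 2 units was present in 3 replication genes (Mcm5, Pcna and Tyms), in 3 mitotic genes (Birc5, Cenpa and Top2a) and in 15.1% of all windows. In Mcm5 it lies at -157 to -150 and overlaps an E2F site at -153 to -146, and in Top2a it lies at -176 to -169 and overlaps the cell cycle homology region at -179 to -174. The longer element with another unit was found in 0 of the members' windows and in 0.603% of all windows. A match describes the letters of the window, and its absence says that these letters are not in this window.

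The mitotic genes other than Spag5 had log2 differences mostly above 0, without passing. Of the 15 measured, 13 lay above 0 and 2 below, with a median of 0.322. Cenpa, the histone H3 variant of centromeres, had the highest, at 0.49 (95% interval 0.003 to 0.985, unadjusted p = 0.049 and adjusted p = 0.322 from limma). It read 5.99, 5.99 and 6.11 on the wild-type arrays and 7.0, 6.08 and 6.49 on the Hsf4-null arrays, where Hsf4-null replicate 2 fell within the wild-type range. Mki67, whose product coats mitotic chromosomes and serves as the common label of cycling cells, read 8.08, 8.25 and 7.41 on the wild-type arrays and 8.95, 7.60 and 8.64 on the Hsf4-null arrays. Its groups overlapped, and its difference of 0.49 had a 95% interval from -0.35 to 1.32, the highest bound among the members.

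The genes that drive entry into mitosis were alike in this. Cdk1, the mitotic kinase, read 7.92, 8.54 and 7.55 on the wild-type arrays and 8.71, 8.01 and 8.37 on the Hsf4-null arrays. Its cyclin partner Ccna2 read 8.13, 8.69 and 8.06 on the wild-type arrays and 9.06, 8.24 and 8.61 on the Hsf4-null arrays. In each the groups overlapped, with differences of 0.36 for Cdk1 and 0.34 for Ccna2. Ccnb2, cyclin B2, differed by 0.33 (95% interval -0.37 to 1.04).

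The genes of chromosome structure and of the spindle also overlapped between the groups. Top2a, the topoisomerase that untangles sister chromatids, read 8.21, 8.57 and 7.85 on the wild-type arrays and 9.10, 7.79 and 8.87 on the Hsf4-null arrays, a difference of 0.38. Kif11, the motor that pushes spindle poles apart, differed by 0.26, and Birc5, the survivin subunit of the chromosomal passenger complex, by 0.15. Aurkb, the kinase of that complex, had one of the narrower intervals, from -0.03 to 0.61 around 0.29. A second Aurkb probe set of similar level had a wider interval, from -0.615 to 0.672 around 0.028. The checkpoint genes Bub1 and Bub1b differed by 0.29 and 0.32. Ube2c and Cdc20, which serve the anaphase-promoting complex in destroying mitotic cyclins, differed by 0.36 and 0.18.

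Plk1 and Aurka, kinases of centrosome maturation and spindle assembly, were the mitotic genes below 0. Plk1 read 4.86, 5.24 and 5.51 on the wild-type arrays and 5.14, 4.85 and 4.63 on the Hsf4-null arrays, a difference of -0.33 (95% interval -0.78 to 0.11). Aurka differed by -0.19. Both probe sets, and that of Tyms, lay below 5.30, the median over all probe sets, where a change is read with less certainty.

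The replication genes gave 0 calls. Of the 10, 7 were above 0 and 3 below, from -0.15 for Mcm4 to 0.22 for Pcna, with a median of 0.047. Pcna, the sliding clamp of DNA polymerase, read 10.60, 10.61 and 10.42 on the wild-type arrays and 11.02, 10.31 and 10.94 on the Hsf4-null arrays. Hsf4-null replicate 2 was its lowest array, and the groups overlapped.

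The MCM genes encode the 6 subunits of the replicative helicase. Mcm6 read 8.09, 8.19 and 7.71 on the wild-type arrays and 8.58, 7.35 and 8.25 on the Hsf4-null arrays, a spread within the Hsf4-null group (SD 0.64) far above its difference of 0.06. Mcm2, Mcm3, Mcm4, Mcm5 and Mcm7 differed by 0.01, 0.18, -0.15, -0.14 and 0.09. Among the genes of deoxynucleotide supply, Rrm1 and Rrm2, the ribonucleotide reductase subunits, differed by 0.07 and 0.03, and Tyms, the thymidylate synthase, by -0.10. Rrm2 had a 95% interval from -0.29 to 0.36, so that a change of the size seen for Spag5 lies outside it.

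The G1 cyclins were measured as 3 genes. Ccnd1, cyclin D1, read 11.52, 11.90 and 11.17 on the wild-type arrays and 12.32, 11.06 and 12.25 on the Hsf4-null arrays, a difference of 0.35 (95% interval -0.45 to 1.14) with overlapping groups. Ccnd2, cyclin D2, differed by 0.21 and Ccne1, cyclin E1, by -0.11.

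Across the 28 members other than Spag5, every 95% interval lay above the Spag5 change of -1.23. For Tyms, with a wild-type mean of 3.60 near the bottom of the scale, a fall of that size could be hidden. The lowest bound among the 28 was that of Plk1, at -0.78. On the upper side the intervals were less informative, since 5 of the 28 reached above 1 on the log2 scale. The 28 genes held 59 probe sets, of which 0 passed limma, against 2.66% of all probe sets, and 1 had an unadjusted p under 0.05, against 15.4%. In 10 of the 16 genes with more than 1 probe set, the probe sets differed in sign. For Top2a, Cdc20, Kif11, Rrm1 and Tyms this rested on dim probe sets, below 5.30, whose sign says little. For Ccnd2, Mcm2, Mcm3, Mcm4 and Mcm6, probe sets above that level differed in sign. With 27 of the 28 intervals holding 0 as well, the direction of a single member is not settled by these arrays.

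The members moved together from array to array within each group. Of the 28 genes other than Spag5, 22 were highest on Hsf4-null replicate 1, and 24 were lowest on either Hsf4-null replicate 2 or wild-type replicate 3. Hsf4-null replicate 1 exceeded Hsf4-null replicate 2 in 28 of 28 genes, and wild-type replicate 2 exceeded wild-type replicate 3 in 25. Genes measured on the same arrays are not independent of each other.

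**Figure D2:**
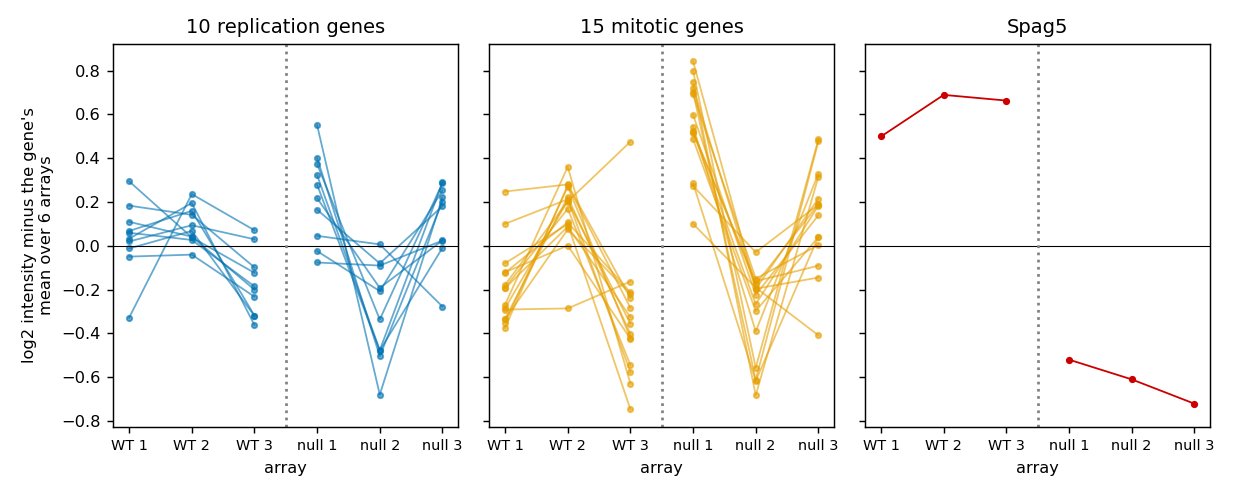
Log2 intensity of each gene on each array minus that gene's mean over the 6 arrays (vertical axis), for 10 replication genes, 15 mitotic genes and Spag5, with wild-type (WT) arrays left and Hsf4-null arrays right of the dotted line. Lines join the points of a gene within a group and carry no order. The replication and mitotic genes were high on Hsf4-null replicate 1 and low on Hsf4-null replicate 2, whereas Spag5 was high on all 3 wild-type arrays and low on all 3 Hsf4-null arrays.

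The class means show the size of this movement. The 15 mitotic genes averaged 6.74, 7.08 and 6.59 on the wild-type arrays and 7.48, 6.61 and 7.06 on the Hsf4-null arrays, or 6.80 ± 0.25 (SD, n = 3) and 7.05 ± 0.44 (SD, n = 3). The 10 replication genes averaged 8.12, 8.18 and 7.91 on the wild-type arrays and 8.31, 7.78 and 8.20 on the Hsf4-null arrays. Within the Hsf4-null group alone, the mitotic mean thus spanned more than the difference of 0.25 between the groups, and the groups overlapped in both classes. The G1 cyclins, at 9.33, 9.64 and 9.29 on the wild-type arrays and 9.91, 9.15 and 9.63 on the Hsf4-null arrays, were likewise highest on Hsf4-null replicate 1 and lowest on Hsf4-null replicate 2.

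Replication and mitotic genes were then set against each other on each array, which removes only movement of equal size in both classes. The replication mean minus the mitotic mean was 1.38, 1.10 and 1.32 on the wild-type arrays and 0.83, 1.17 and 1.14 on the Hsf4-null arrays. These groups overlapped, with 1.27 ± 0.15 (SD, n = 3) against 1.05 ± 0.19 (SD, n = 3). Within the Hsf4-null group the mitotic mean varied more than the replication mean (SD 0.44 against 0.28). Replication minus mitotic was lowest on Hsf4-null replicate 1, wild-type replicate 2 and Hsf4-null replicate 3. Those arrays were high for the mitotic mean, so that movement between arrays was not removed. Without Hsf4-null replicate 1 the difference between the groups was -0.08 for the replication mean and 0.03 for the mitotic mean. Without Hsf4-null replicate 2 it was 0.19 for the replication mean and 0.47 for the mitotic mean. These are the ends of the range over the fits that leave out an array. Spag5 minus the mitotic mean was 2.51, 2.37 and 2.83 on the wild-type arrays and 0.75, 1.54 and 0.98 on the Hsf4-null arrays, without overlap. The wild-type mean was 2.57 ± 0.24 (SD, n = 3), against 1.09 ± 0.40 (SD, n = 3) in the Hsf4-null group. This change of -1.48 joins the Spag5 change of -1.23 to the difference of 0.25 in the mitotic mean, whose groups overlapped. It is therefore not a separate result about Spag5. Spag5 minus the replication mean was 1.14, 1.27 and 1.51 on the wild-type arrays and -0.07, 0.37 and -0.17 on the Hsf4-null arrays, also without overlap. These are differences on the log2 scale between probe sets, whose zero points have no meaning, and only their change between arrays can be read.

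Markers of the retina, which lies behind the lens, moved in nearly the same order as the proliferation genes. The 12 measured of 15 retina and retinal neuron markers averaged 5.70, 6.72 and 5.07 on the wild-type arrays and 6.99, 4.77 and 7.05 on the Hsf4-null arrays. Their log2 differences lay above 0 in 12 of 12, with a median of 0.446. Of these markers, 0 passed limma, also at an unadjusted p under 0.05. Neurod1, a transcription factor of retinal neurons, read 7.39, 8.85 and 5.53 on the wild-type arrays and 9.0, 5.88 and 8.77 on the Hsf4-null arrays. The photoreceptor markers Crx, Nrl and Rcvrn were dim, with Crx at 4.49, 5.26 and 4.20 on the wild-type arrays and 5.43, 4.27 and 5.26 on the Hsf4-null arrays. The arrays high for the retina markers were wild-type replicate 2 and Hsf4-null replicates 1 and 3, the same that were high for the mitotic mean.

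**Figure D3:**
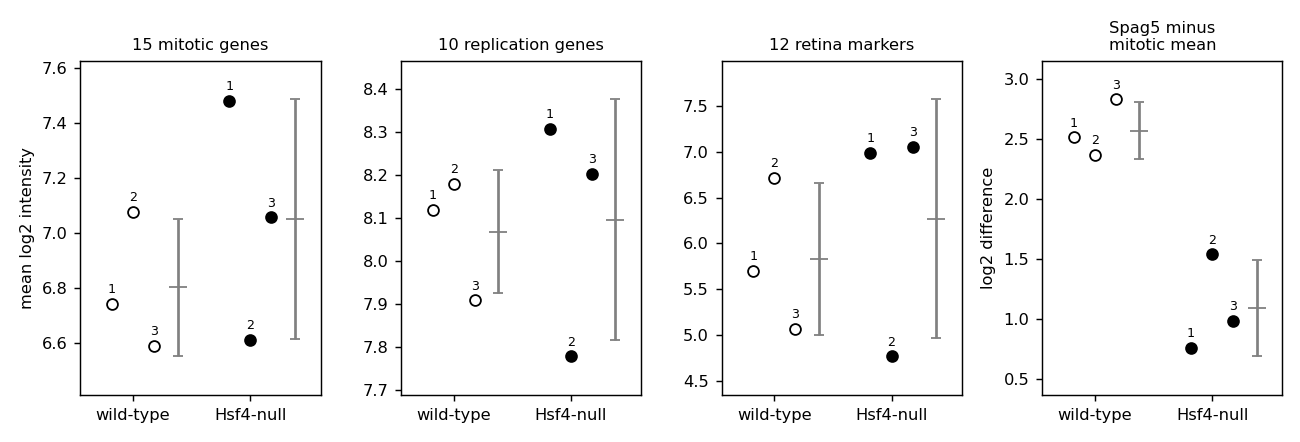
Mean log2 intensity on each array of 15 mitotic genes, 10 replication genes and 12 retina markers, and the Spag5 value minus the mitotic mean (vertical axes, each with its own range), for 3 wild-type arrays (open) and 3 Hsf4-null arrays (filled), numbered by replicate. Gray bars give the mean ± SD of a group. The first 3 panels overlap between the groups and share their low arrays, wild-type replicate 3 and Hsf4-null replicate 2, whereas the last does not overlap.

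A fit that adds the retina marker mean of each array as a covariate, chosen after seeing the data, was run beside the limma fit. In it, 26 of the 28 genes other than Spag5 had a slope on the retina mean above 0, with a median of 0.241 per log2 unit against -0.001 over all genes. The median difference became 0.181 for the mitotic genes and -0.06 for the replication genes, and 5 of the 28 genes changed sign. Of the 28, 0 passed with the covariate. Spag5 had a slope of 0.004 and fell by 1.24 (limma with the covariate: SE 0.12, adjusted p = 0.00273). The part of retinal tissue in the levels of the proliferation genes was not tested.

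Other marker lists were read in the same way. The 15 lens epithelium markers averaged 9.5, 9.41 and 9.43 on the wild-type arrays and 9.36, 9.36 and 9.40 on the Hsf4-null arrays, without overlap. Their log2 differences lay above 0 in 6 and below 0 in 9, with a median of -0.059. There were 0 calls among them, and 3 had an unadjusted p under 0.05 from limma. The 15 macrophage markers averaged 5.49, 5.38 and 4.57 on the wild-type arrays and 5.84, 5.22 and 5.60 on the Hsf4-null arrays. Like the retina markers, they were low on wild-type replicate 3 and Hsf4-null replicate 2. Their log2 differences lay above 0 in 13 of 15, with 0 calls. Of 12 lens fiber markers, 4 fell (Hspb1, Bfsp1, Dnase2b and Prox1), where 2.11% of all genes fell, and 11 lay below 0. Of 12 mesenchyme markers, 2 rose (Col1a1 and Twist1), where 0.775% of all genes rose, and 11 lay above 0. The 14 vascular, 9 cornea and skin and 5 blood markers gave 0 calls, with 4, 2 and 3 at an unadjusted p under 0.05, against 15.7% of all genes. Vascular markers lay above 0 in 12 of 14, with a median of 0.353, and so, like the retina markers, in the same direction as most mitotic genes. The part of macrophage and vascular tissue in the levels of the proliferation genes was not tested.

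Beyond the 30 members, 127 further cell cycle genes were measured, from lists of replication, mitosis, Spag5 partners and cell cycle regulators. Of these, 3 fell and 0 rose, a share close to the 2.11% of all genes that fell, so that the count is no result about these lists.

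Timeless, which encodes a component of the fork protection complex that travels with the replication fork, had the largest change of the 3 called genes. Its brightest probe set read 9.19, 8.56 and 9.37 on the wild-type arrays and 7.53, 7.42 and 7.46 on the Hsf4-null arrays. The groups did not overlap, and Timeless fell by 1.57 (limma: SE 0.20, adjusted p = 0.005945). A dimmer probe set read 5.55, 5.21 and 5.72 on the wild-type arrays and 4.73, 4.06 and 4.52 on the Hsf4-null arrays and fell by 1.06 (adjusted p = 0.0352 from limma).

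Rpa3, the small subunit of the protein that coats single-stranded DNA, read 8.79, 8.69 and 8.63 on the wild-type arrays and 8.15, 7.72 and 8.03 on the Hsf4-null arrays. It fell by 0.74 (limma: SE 0.13, adjusted p = 0.0298). Zwilch, a kinetochore protein of the spindle checkpoint, read 7.67, 7.35 and 7.42 on the wild-type arrays and 6.97, 6.53 and 6.29 on the Hsf4-null arrays. It fell by 0.89 (limma: SE 0.18) at an adjusted p of 0.04999, just inside the threshold. With the retina covariate Timeless and Rpa3 still passed, and Zwilch did not (adjusted p = 0.076), although its change of -0.89 was the same size. Leaving out any array but Hsf4-null replicate 1 ended the calls of Rpa3 and Zwilch, with changes of -0.77 to -0.61 for Rpa3 and -0.95 to -0.73 for Zwilch in those fits, about as large as over all arrays.

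**Figure D4:**
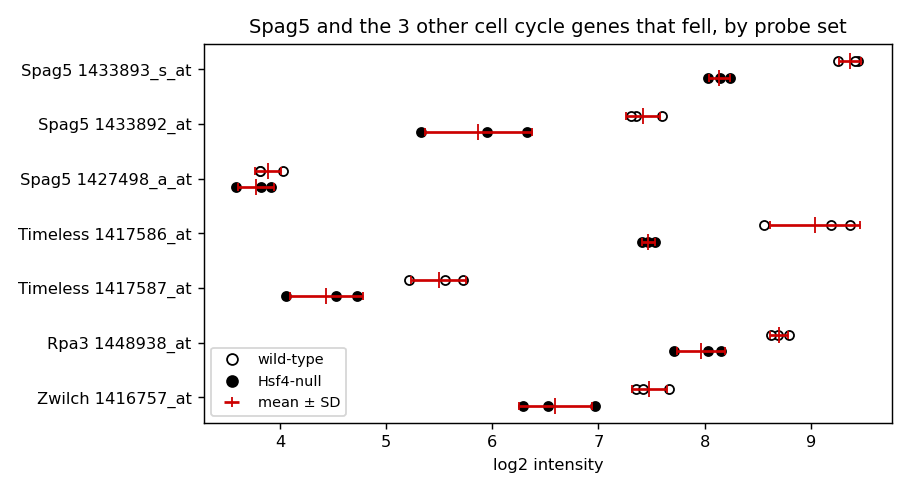
Log2 intensity (horizontal axis) of every probe set of Spag5, Timeless, Rpa3 and Zwilch on 3 arrays of each group (wild-type open, Hsf4-null filled), with the mean ± SD in red. The groups are apart in all probe sets but the dim 1427498_a_at of Spag5, near 4 on the scale. Levels of different probe sets are not comparable with each other.

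The rest of the lists did not pass. Of 40 measured replication genes outside the members, 38 were not called, with a list median of 0.062 and 8 genes in all at an unadjusted p under 0.05. Prim2, a primase subunit, had the largest difference of these, 1.75, with wild-type replicate 3 at 4.51 far below the 6.37 and 6.66 of the other two (adjusted p = 0.147 from limma). Gmnn, geminin, the inhibitor of replication licensing, differed by 0.51. Of 57 other mitotic genes, 56 were not called, with a list median of 0.118 and 42 of 57 above 0. Pttg1, securin, and Cdc25b, the phosphatase that activates Cdk1, differed by 0.64 and 0.66 (adjusted p = 0.254 and 0.377 from limma).

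Genes whose products act with astrin lay near 0. Of 9 measured partners, among them Plk1 and Aurka, 0 passed limma and 0 had an unadjusted p under 0.05. Their log2 differences ran from -0.33 to 0.08, with a median of -0.031. Of the 9, 4 were dim, below the median over all probe sets, where a change is read with less certainty. Of 23 cell cycle regulators, 0 passed and 4 had an unadjusted p under 0.05. Cdk2, the kinase of S phase entry, read 6.58, 5.86 and 5.87 on the wild-type arrays and 6.84, 6.67 and 7.08 on the Hsf4-null arrays, at a difference of 0.76 (adjusted p = 0.131 from limma). Its groups did not overlap, as was so in this direction for 10.1% of all genes. E2f5, a repressive E2F factor, differed by 0.55 (adjusted p = 0.17 from limma).

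The position of Spag5 on its chromosome was examined next. Among the 10 measured genes on each side, 0 fell and 1 rose by limma, where 2.11% of all genes fell and 0.775% rose, and Spag5 had the only fall in the stretch. The nearest measured genes, 2610507B11Rik and Aldoc, the brain-type aldolase, differed by 0.08 (adjusted p = 0.826) and -0.17 (adjusted p = 0.551). Slc46a1, the proton-coupled folate transporter, was the gene that rose, by 1.90 (limma: SE 0.11, adjusted p = 0.000152).

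**Figure D5:**
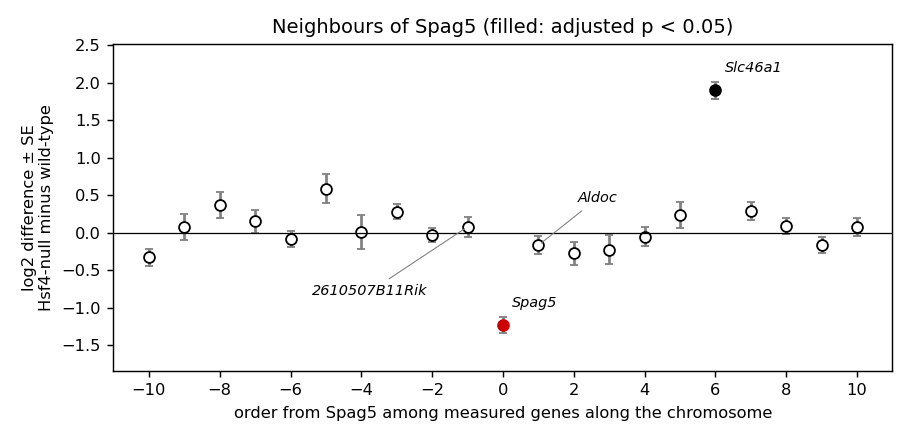
Log2 difference ± standard error between Hsf4-null and wild-type lenses (vertical axis) for Spag5 and the 10 measured genes on each side of it, in their order along the chromosome (horizontal axis). Filled points passed at an adjusted p under 0.05. Spag5 at -1.23 and Slc46a1 at 1.90 are the filled points, and the other 19 genes lie between -0.33 and 0.59.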

How the data were processed

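Arrays of 3 wild-type and 3 Hsf4-null newborn lens samples were grouped by the labels. The authors applied RMA (background correction, quantile normalization and probe summary), and the deposited values are linear intensities, 1 for each probe set and array, from 7.19 to 29886.8. No source used here gives the RMA version or the set of arrays normalized together. Here log2 was taken of the deposited intensities, the 64 control probe sets among 22690 were dropped, and the other 22626 were fitted with limma 3.58.1 in R 4.3.3 (2 groups, no block), with Benjamini-Hochberg adjustment over all of them. Single symbols were carried by 20380 probe sets, several by 691, and 1555 are unnamed here. For 20351 of the single symbols the RefSeq (GRCm38.p6) symbol was used, whether or not it differed. The 12393 genes were read by their brightest probe set, without a filter on dim ones. Array medians ran from 5.22 to 5.38.

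The members and gene lists were chosen with earlier results of these data known. Named were all members, called genes of each list up to 6 by size with the 2 largest not called, called markers, and the called and nearest neighbors of Spag5. The alternatives were the replicate block, variance models, array weights, scaling, a dim filter, a minimum fold, other probe set choices, the methods' t-test and leaving out each array. SAM, which the methods combine with the t-test, was not run. The fit was tested on simulated data.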

Additional observations from a re-analysis of the deposited data

How the results depend on the processing

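Spag5 passed under all 17 alternatives, with log2 changes from -1.293 to -1.182 over the fits that leave out an array, and was the only member that passed in each; 0 values of the other 28 members passed under any. The highest adjusted p of Spag5 was 0.0435, with Benjamini-Hochberg adjustment of the methods' t-test. The count of called probe sets, 602 over all arrays, became 366 with 1 probe set per gene, 2912 with the methods' t-test unadjusted and 85 with it adjusted, and ran from 321 to 562 over the fits that leave out an array (wild-type replicate 2: 335, wild-type replicate 3: 358, Hsf4-null replicate 3: 321). Of the 127 further cell cycle genes, 3 called over all arrays, 8 were called with the methods' t-test (Timeless, Rpa3, Zwilch, Ccng1, Cdk2, Pola2, Rpa1 and Sgo1), 0 with it adjusted, and 1 to 3 with a single array left out (1, Timeless, without wild-type replicate 2 or Hsf4-null replicate 3). Genes not called over all arrays entered in 3 of these fits, each as a rise, namely Cdk2 without wild-type replicate 1, Prim2 without wild-type replicate 3 and Dlgap5 without Hsf4-null replicate 2. Timeless was lost only with the adjusted t-test. Among the neighbors of Spag5, 0 were called with 5 genes on each side and 2 with 20. Leaving out single arrays moved the difference of the mitotic mean from 0.031 to 0.468, of the replication mean from -0.079 to 0.186, of replication minus mitotic from -0.304 to -0.11, and of Spag5 minus mitotic from -1.706 to -1.314. Some settings hold fewer arrays or genes, and the cause of these shifts was not tested. With the replicate number as a block in limma, 382 probe sets were called. In that fit Spag5 had an adjusted p of 0.0117 and Rpa3 did not pass (adjusted p = 0.0571). Deviations from the group mean correlated at 0.252, -0.206 and -0.081 between same-numbered samples. Between wild-type replicate 3 and Hsf4-null replicate 2 the correlation was 0.406. The labels give only a replicate number, and whether same-numbered samples share anything else was not tested. For genes that passed in neither setting, the sign was not compared. No detection calls were used, so a change of a dim probe set may be hidden.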

Other observations

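Farther along the chromosome from Spag5, a cyclin gene also fell. Ccnq, which encodes the activating cyclin of Cdk10 and stands 15 measured genes away, averaged 7.75 on the wild-type and 6.42 on the Hsf4-null arrays (log2 difference -1.33, limma: SE 0.12, adjusted p = 0.00126). It was chosen after its value was seen and belongs to none of the lists.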
